A study of Mus musculus with 116 samples.

Results

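Genes that move inorganic phosphate or release it from phosphate esters were followed from the mature mouse oocyte to the inner cell mass (ICM) of the blastocyst. These 5 genes are the sodium-phosphate cotransporter genes Slc34a2, Slc20a1 and Slc20a2 and the alkaline phosphatase genes Alppl2 and Alpl. All 5 were found by symbol, each in 1 row of each of 4 deposited tables, out of 24028 symbols present in all tables. They were chosen by their levels in these same libraries, namely the difference between the zygote and the late 2-cell embryo, the difference after a transcription block and the ICM level. Those 3 differences are therefore described without a test and support nothing further.

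The study mapped RNA polymerase II during zygotic genome activation, and its 7 RNA libraries are used here. Oocytes and embryos were wild type, the females were 8-week-old and superovulated with PMSG and hCG, and embryos came from C57BL/6N mothers and PWK fathers. MII oocytes were taken 13 h after hCG, PN5 zygotes (the last pronuclear stage) at 30 h, early 2-cell embryos at 36 h and ICM at 98 h. The late 2-cell embryos began as zygotes taken at 23 h. The control medium held 0.1% DMSO for 14 h and the treated medium 60 uM DRB over the same time. DRB inhibits the kinase that lets RNA polymerase II leave its pause. Embryos were then released and cultured for a further 12 h. The DRB group is labelled mTBE. Each of these 5 groups had 1 library of ribosome-depleted total RNA pooled from about 100 oocytes or embryos. The ICM group had 2 Smart-seq2 libraries of polyadenylated RNA. The labels do not say whether these came from separate litters, so the spread between them may be technical.

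Cells take up phosphate mainly with sodium. Slc34a2 encodes NaPi-IIb, an epithelial cotransporter known from intestine and lung, whereas Slc20a1 (PiT-1) and Slc20a2 (PiT-2) encode widely expressed cotransporters that also serve as receptors for retroviruses. Alkaline phosphatases sit on the outer cell surface by a GPI anchor and remove phosphate from esters outside the cell. Alpl encodes the tissue-nonspecific enzyme, which acts on pyrophosphate and pyridoxal phosphate, and Alppl2 the enzyme long known as embryonic alkaline phosphatase. Alkaline phosphatase staining is a classical mark of pluripotent cells and primordial germ cells.

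Levels are the authors' FPKM, fragments counted per length of transcript and scaled to library size, so that genes can be compared per length within a library. FPKM is a share of a library and not an amount per embryo, and in these pools fewer cells with a transcript and less RNA per cell cannot be told apart. PN5 and both late 2-cell libraries share 1 table. MII, early 2-cell and ICM have tables of their own, normalized separately, so levels set across them are less certain. The libraries had 9396 to 13022 genes at 1 FPKM or more. Differences are given on the log2(FPKM + 1) scale, which understates the fold of low genes, and a gene was counted as higher or lower from a difference of 1, that is 2-fold. With 1 library a group no p-value could be calculated, and only the ICM pair shows a spread between libraries. Oocyte markers were at 1 FPKM or more (9 of 9) in each of the 5 total RNA libraries, so they do not tell MII from the others. Markers of the 2-cell stage at that level rose in the order of the stage labels. They were 1 of 10 in MII, 4 of 10 in PN5, 7 of 10 in early 2-cell and 10 of 10 in the late control. Pluripotency markers were at 1 FPKM or more for 10 of 10 genes in both ICM libraries and in the DRB library. In the late control 9 of 10 were. Nanog (105 and 133 FPKM), Tdgf1, Zfp42, Gdf3 and Dppa5a were higher in both ICM libraries than in the late control. Sox2 (5.25 and 2.85 against 10.1), Klf2, Esrrb and Fgf4 were lower in both. The ICM libraries also held trophectoderm markers, 9 of 9 at 1 FPKM or more. These summed to 1833 and 1566 FPKM, led by Krt18 at 1116 and 991. The same list summed to 22.2 to 74.9 FPKM in the total RNA libraries. The part of these transcripts in the ICM levels below was not tested.

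Slc34a2 was almost silent before the late 2-cell stage and was then among the most abundant transcripts of the embryo. Its level was 0.501 FPKM in MII, 0.496 in PN5, 2.64 in early 2-cell, 216 in the late 2-cell control and 65.0 in the DRB-released embryos, and 21.3 and 16.3 in the 2 ICM libraries. The late control was thus the highest of the 7 libraries and PN5 the lowest. In the late control it ranked 175th from the top of 12472 genes at 1 FPKM or more, and in the DRB library 980th of 13022. Between PN5 and the control the difference was 7.18 in log2(FPKM + 1), the 8th largest of 13022 genes.

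Alppl2 showed a similar course up to the late 2-cell stage, from a slightly higher start. It was at 3.14 FPKM in MII, 2.77 in PN5, 3.49 in early 2-cell, 138 in the late control and 19.3 in the DRB library. The difference between PN5 and control was 5.21, the 65th largest of 13022. In the ICM libraries it was at 91.2 and 246 FPKM, on either side of the late control. Its course therefore parts from that of Slc34a2 after the 2-cell stage, where Slc34a2 was lower in both ICM libraries than in either late 2-cell library. This contrast between the genes was not tested.

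Slc20a1 was abundant in every library. It was at 29.2 FPKM in MII, 60.4 in PN5, 22.3 in early 2-cell, 82.4 in the late control, 99.0 in the DRB library, and 59.9 and 31.1 in the ICM libraries, a range of 4.44-fold from lowest to highest. Its paralog Slc20a2 was low throughout, at 5.45, 1.94, 2.19, 1.23, 0.693, 2.98 and 1.36 FPKM in the same order. MII was its highest library and the DRB library its lowest. A separate gene, Smim19, overlaps Slc20a2 in RefSeq and was at 2.83 to 13.3 FPKM, and the counting is not stated to use strand, so the low values of Slc20a2 are uncertain. RefSeq also places Gm17182 over Slc34a2 and Gm29371 over Alppl2, symbols not in the 4 tables.

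Alpl stayed at a low and even level until the ICM. It was at 4.66 FPKM in MII, 7.86 in PN5, 4.92 in early 2-cell, 7.03 in the late control and 5.39 in the DRB library, against 60.8 and 59.1 in the ICM libraries. The ICM values lay above each of the 5 total RNA libraries. Alppl2 and Alpl thus differed in the stage at which they were first high, the late 2-cell stage for Alppl2 and the ICM for Alpl, as the plot of levels in the 7 libraries shows.

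**Figure D1:**
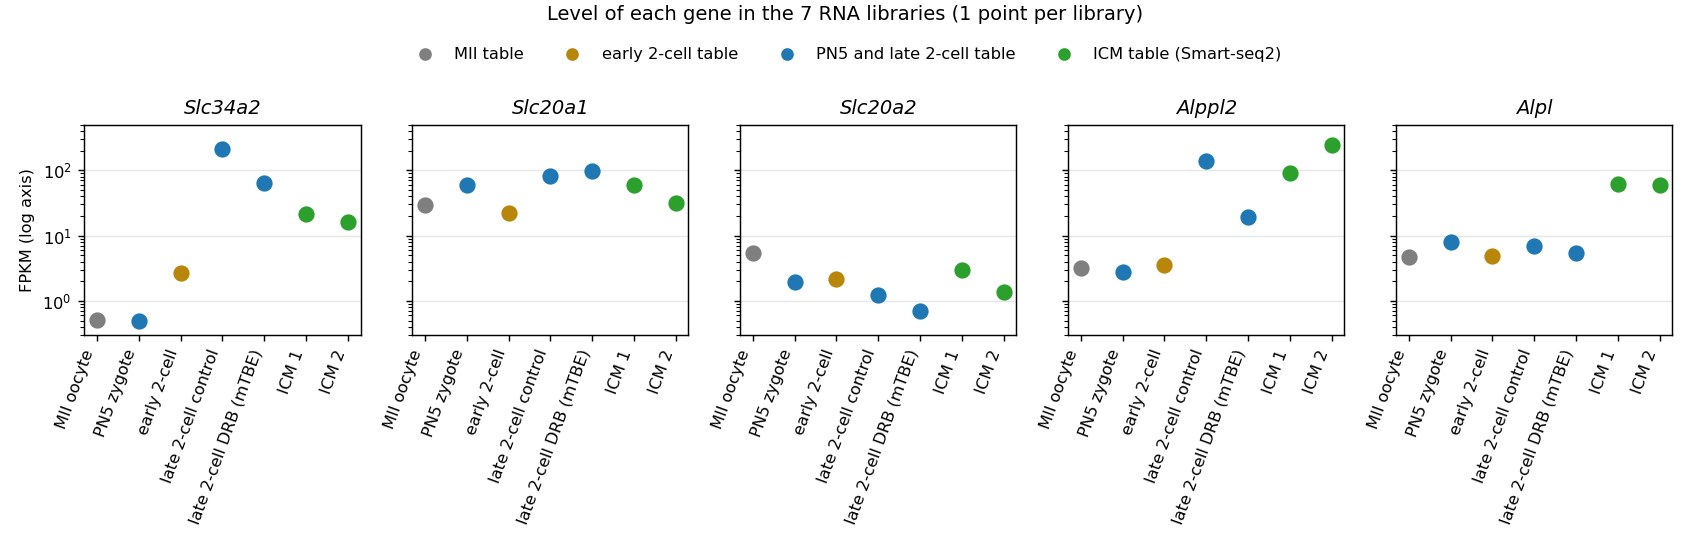
Each panel plots 1 gene, with FPKM on a log axis and 1 point for each of the 7 libraries, coloured by deposited table. From PN5 to the late 2-cell control Slc34a2 goes from 0.496 to 216 FPKM and Alppl2 from 2.77 to 138, whereas Alpl is high only in the ICM libraries among the 7, at 60.8 and 59.1 FPKM.

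Because Slc34a2 and Alppl2 were both high at the late 2-cell stage, the 250 bases before their annotated starts were read from RefSeq (GRCm38.p6). Those of Alpl, which was low at that stage, are given beside them. RefSeq promoters were matched for 4 of 5 genes. Capitals mark matches on either strand to TATAAA (the TATA box), CCAAT (the CAAT box), GGGCGG (the GC box), GGAAGT (Ets factors), GCCNNNGGC (Tfap2 factors), AAGGTCA (Nr5a and Esrr factors) or CACACCC (Klf factors). Each sequence runs 5′ to 3′ on the gene's strand and ends at the base before the start.
Slc34a2, + strand, chr5:53049103-53049352: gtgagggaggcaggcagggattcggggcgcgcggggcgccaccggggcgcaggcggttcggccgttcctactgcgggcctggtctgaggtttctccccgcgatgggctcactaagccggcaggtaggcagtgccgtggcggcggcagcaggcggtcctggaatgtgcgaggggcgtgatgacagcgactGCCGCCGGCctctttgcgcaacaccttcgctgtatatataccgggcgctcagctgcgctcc
Alppl2, - strand, chr1:87089929-87090178: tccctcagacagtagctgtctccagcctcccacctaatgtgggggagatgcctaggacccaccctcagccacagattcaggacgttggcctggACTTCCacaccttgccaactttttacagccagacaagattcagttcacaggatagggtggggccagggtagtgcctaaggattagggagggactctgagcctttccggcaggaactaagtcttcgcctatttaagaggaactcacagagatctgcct
Alpl, - strand, chr4:137796385-137796634: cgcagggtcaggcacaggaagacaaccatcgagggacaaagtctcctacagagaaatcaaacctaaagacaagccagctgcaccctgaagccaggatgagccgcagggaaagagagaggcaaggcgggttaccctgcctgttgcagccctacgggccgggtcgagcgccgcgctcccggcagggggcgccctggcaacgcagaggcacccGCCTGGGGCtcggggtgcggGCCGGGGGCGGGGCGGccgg

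The promoters of the genes that were high together were unlike in composition. Slc34a2 had 28 CpG dinucleotides in this window and 69.6% G and C, whereas Alppl2 had 3 CpG and 54% G and C. The median of 32851 promoters was 6 CpG. Alpl had 20 CpG, and the first start of Slc20a1 had 29. Of the 7 motifs Slc34a2 matched only GCCNNNGGC, which 13.7% of all promoters hold, at 61 to 53 bases before the start. Alppl2 matched only the reverse of GGAAGT, held by 19.7%, at 157 to 152 bases. Alpl held GCCNNNGGC at 2 places and GGGCGG at 2 places, with the last copy of GCCNNNGGC overlapping the first GC box and the GC boxes sharing 1 base. The first start of Slc20a1 held GGGCGG at 2 places (in 32.7% of promoters) and CCAAT at 1 (in 33.8%). Slc34a2 and Alppl2 thus shared none of these motifs, which says only that no exact spelling searched was in both windows. TATAAA is 1 spelling of the TATA box, and other spellings were not searched. Near the start Slc34a2 holds tatatata and Alppl2 tatttaag, which TATAAA does not match, so a shared TATA-like element was not tested. RefSeq lists another start for Slc20a1 and for Alpl, and the start used in embryos was not measured here.

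Within a library the proportions of the genes do not depend on how a table was scaled. Slc20a1 made up 96.1% of the summed FPKM of the 3 transporter genes in PN5, 83.1% in MII and 82.2% in early 2-cell. In the late control Slc34a2 made up 72.1% and Slc20a1 27.5%, so that the leading transporter transcript was a different one. Slc34a2 stood at 2.62 times the level of Slc20a1 there and at 0.657 times in the DRB library. In DRB-released embryos Slc20a1 led again, with 60.1% against 39.5% for Slc34a2. In the ICM libraries Slc20a1 made up 71.1% and 63.8% and Slc34a2 25.3% and 33.4%. Slc20a2 contributed most in MII, with 15.5%, and 0.412% in the late control.

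Of the 2 alkaline phosphatase genes Alpl was the larger part before the late 2-cell stage. It made up 59.7% of their sum in MII, 73.9% in PN5 and 58.5% in early 2-cell. Alppl2 made up 95.2% in the late control, 78.1% in the DRB library, and 60.0% and 80.6% in the ICM libraries. The summed level of both was 10.6 FPKM in PN5, 145 in the late control, 24.7 in the DRB library, and 152 and 305 in the ICM libraries. Alpi and Akp3, the alkaline phosphatase genes that lie near Alppl2 on chromosome 1, were at most at 0.0286 and 0.629 FPKM in any library. The 4 genes share sequence, and how the authors assigned reads that map to several copies is not given in the sources used here.

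**Figure D2:**
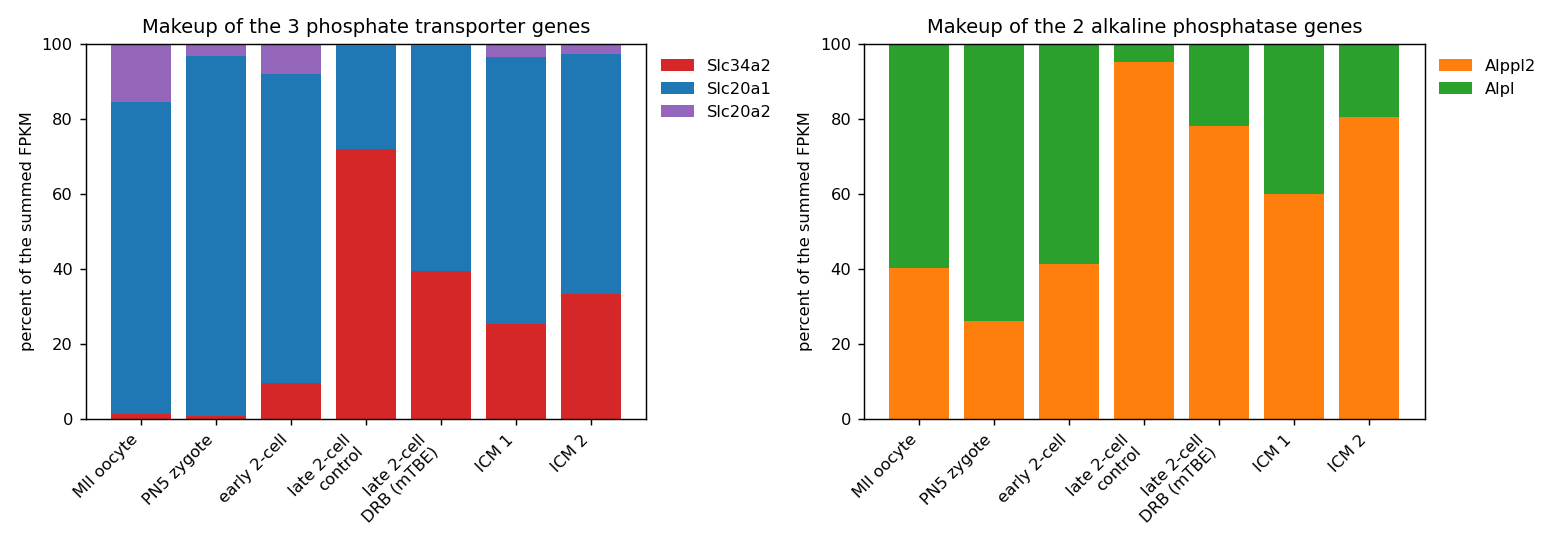
Stacked bars give each gene's percent of the summed FPKM of the 3 transporter genes (left) and of the 2 alkaline phosphatase genes (right) in each of the 7 libraries. Slc34a2 makes up 72.1% of the transporter sum in the late 2-cell control and 39.5% after DRB, and Alppl2 95.2% and 78.1% of the phosphatase sum.

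Onset was read first within the table that PN5 and the late 2-cell libraries share. Slc34a2 and Alppl2 were at least 2-fold higher in the late control than in PN5, 2 of 5 genes, and 0 of 5 were lower. Over all genes measured 30.5% were higher and 17.0% lower, and nothing is read from the comparison of these shares because the genes were chosen on this contrast. Slc20a1 differed by 0.44, Slc20a2 by -0.40 and Alpl by -0.14 in log2(FPKM + 1), all within 2-fold. The median of the 5 genes was 0.44 and that of all 13022 genes 0.28. The control had been held in DMSO and cultured, which is not recorded for PN5, so stage and culture cannot be told apart.

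Across tables, Slc34a2 was more than 2-fold higher in early 2-cell embryos than in MII by the size rule and Alppl2 was not. Slc34a2 was at 2.64 FPKM in early 2-cell and 0.501 in MII, a difference of 1.28, or 1.82 when the median log2 difference of genes expressed at 5 FPKM in both libraries was set to 0. Under a filter of 5 FPKM it did not enter this comparison. Alppl2 differed by 0.12 between the same libraries, or 0.66 with the median set to 0, and Alpl by 0.07. In this comparison 1 of 5 genes was higher, against 4.02% of all genes, and 1 lower, against 28.8%. The lower gene was Slc20a2 with a difference of -1.02, which was -0.48 with the median set to 0 and no longer 2-fold. From early 2-cell to the late control 3 of 5 were higher, against 49.6% of all genes, and 0 lower, against 8.62%. Slc34a2 differed by 5.90 (5.32 with the median set to 0), Alppl2 by 4.96 (4.38) and Slc20a1 by 1.84 (1.27). Slc20a2 was at -0.51, or -1.09 with the median set to 0, and Alpl at 0.44, or -0.13 with the median set to 0, a change of sign. Higher genes made up 12.2% of all genes past 2-fold in the first of these comparisons and 43.2% with the median set to 0, and 85.2% and 66.3% in the second. Slc20a1 was at -0.38 in early 2-cell against MII, or 0.16 with the median set to 0.

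Between MII and PN5, before the 2-cell stage, 1 of 5 genes was higher, against 8.77% of all genes, and 1 lower, against 9.23%. Slc20a1 was the higher one with a difference of 1.02, which was 0.71 with the median set to 0 and then within 2-fold. Slc20a2 was lower by the size rule, with a difference of -1.13, or -1.44 with the median set to 0. Alpl was at 0.65 and Alppl2 at -0.13. Higher genes made up 48.7% of all genes past 2-fold, and 19.0% with the median set to 0. Slc34a2 was under 1 FPKM in both libraries and did not enter this comparison. The median log2 difference used for this setting was 0.31 for this pair of tables, -0.54 for early 2-cell against MII, 0.57 for the late control against early 2-cell and 0.10 for ICM against the late control. Within the shared table it was -0.12 for the control and -0.17 for the DRB library against PN5, and -0.09 between the late libraries.

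After the DRB block and 12 h of release, Slc34a2 and Alppl2 were lower than in control embryos and the other 3 genes were within 2-fold. Slc34a2 was at 65.0 FPKM and 216 in control, a difference of -1.72. Alppl2 was at 19.3 and 138 FPKM, a difference of -2.78 and the 23rd largest in that direction of 13726 genes. Thus 2 of 5 genes were lower, against 9.99% of all genes, and 0 higher, against 5.57%. Nothing is read from these shares, since the genes were chosen on this contrast. Slc20a1 was at 99.0 and 82.4 FPKM with a difference of 0.26, Slc20a2 at 0.693 and 1.23 with -0.40 and Alpl at 5.39 and 7.03 with -0.33. In the plot of control against DRB levels the last 3 lie inside the 2-fold lines. Higher genes made up 35.8% of all genes past 2-fold, and 45.8% with the median set to 0. The markers of the 2-cell stage were at 1 FPKM or more in both libraries (10 of 10), with a summed level of 395 FPKM in control and 200 after DRB, and the oocyte markers (9 of 9) at 4027 and 5190. The part of these differences in the levels of Slc34a2 and Alppl2 was not tested.

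**Figure D3:**
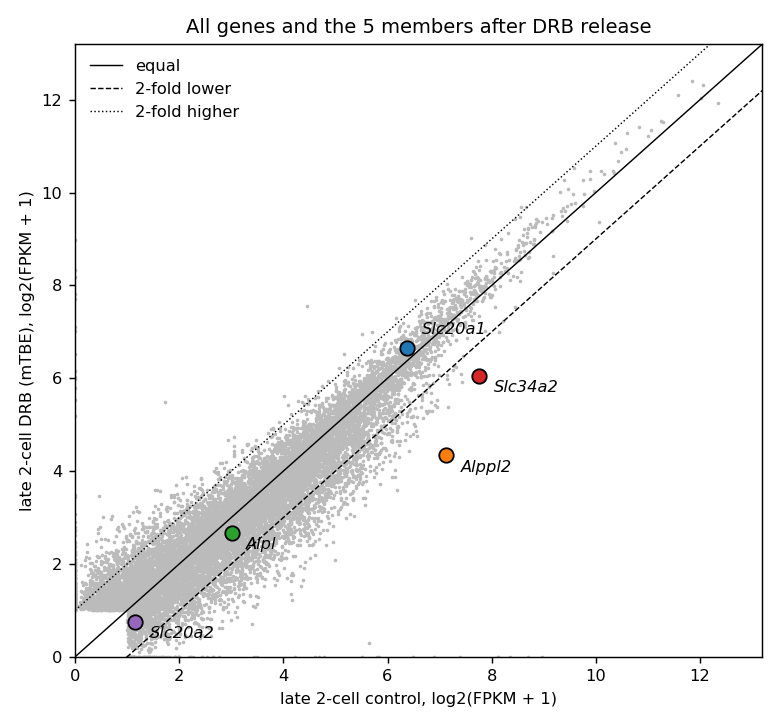
Each grey point is 1 of the 13726 genes at 1 FPKM or more in either late 2-cell library, with log2(FPKM + 1) in control on the x axis and in DRB-released embryos on the y axis, and lines at equal levels and at 2-fold. Alppl2 and Slc34a2 lie below the 2-fold line, at differences of -2.78 and -1.72.

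Both genes were nevertheless well above PN5 in the DRB library. Against PN5, 2 of 5 genes were higher in DRB-released embryos, against 29.4% of all genes, and 0 lower, against 17.7%. Slc34a2 differed by 5.46 and Alppl2 by 2.42, while Slc20a1 (0.70), Alpl (-0.47) and Slc20a2 (-0.80) were within 2-fold. Slc20a2 passed 2-fold with a pseudocount of 0.1 (-1.36) or with each library rescaled to an equal sum (-1.14). On the linear scale Slc34a2 reached 30.1% of its control level and Alppl2 13.9%. The gain over PN5 was 29.9% of the control gain for Slc34a2 and 12.2% for Alppl2. Each pair of these comparisons shares a library.

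The same percent was calculated for the 3970 genes at least 2-fold higher in control than in PN5. Their median level in the DRB library was 66.2% of control, with quartiles at 44.0% and 100.2%, and 32.5% of them were at or under 50%. Of these genes 105 had a lower percent than Alppl2 and 453 a lower percent than Slc34a2. Among the 304 that were also at 50 FPKM or more in control, 6 lay under Alppl2 and 22 under Slc34a2, with a median of 67.8%. The choice of genes on the control library moves this median. For the 3963 genes chosen instead as 2-fold higher in the DRB library than in PN5 it was 106.8%, with 4 genes under Alppl2 and 125 under Slc34a2.

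**Figure D4:**
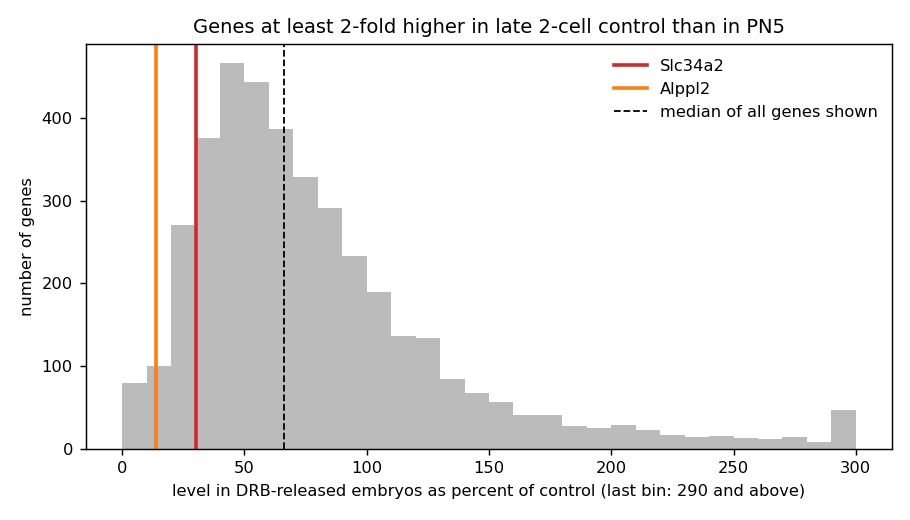
The histogram counts the 3970 genes at least 2-fold higher in the late 2-cell control than in PN5 by their level in the DRB library as a percent of control, in steps of 10 percentage points, with all higher values gathered in the last bar. Vertical lines mark Alppl2 at 13.9%, Slc34a2 at 30.1% and the median of all genes shown at 66.2%.

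In the ICM Slc34a2 was lower and Alpl higher than in late 2-cell control embryos. Slc34a2 was at 18.8 ± 3.57 FPKM (SD, n = 2) against 216, a difference of -3.47. Alpl was at 59.9 ± 1.19 (SD, n = 2) against 7.03, a difference of 2.92. Thus 1 of 5 genes was higher, against 25.0% of all genes, and 1 lower, against 47.8%. Slc20a1 was at 45.5 ± 20.4 (SD, n = 2) with a difference of -0.91, and passed 2-fold with ICM replicate 2 alone (-1.38), with rescaling to an equal sum (-1.31) and with the median set to 0 (-1.02). Slc20a2 was at 2.17 ± 1.15 (SD, n = 2), with 0.46. Stage, library protocol and table all change between these groups and cannot be told apart. Ranks within each library depend on table scaling only through the FPKM cut for the genes ranked. Among genes at 1 FPKM or more Alpl was at percentile 85.6 and 85.4 in the ICM libraries and at 43.7 in the late control. Slc34a2 was at percentile 68.2 and 64.4, against 98.6 in the late control. With a cut of 5 FPKM Alpl was at 78.6 and 77.2 against 12.9, and Slc34a2 at 52.7 and 44.6 against 97.8.

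The ICM level of Alppl2 was not settled by these libraries. It was at 168 ± 109 FPKM (SD, n = 2), with 0.11 against the late control, -0.28 with rescaling to an equal sum, -0.60 from ICM replicate 1 alone and 0.82 from replicate 2 alone. Between replicate 2 and replicate 1 it differed by 1.42, and 1.43% of 9983 genes differed by more in either direction. It was the 1 gene of 5 that was 2-fold higher in replicate 2, against 2.31% of all genes, and 0 of 5 were lower, against 2.79%. Slc20a1 was at -0.92, Slc20a2 at -0.75, Slc34a2 at -0.37 and Alpl at -0.04 between the replicates, beside a median absolute difference of 0.34 over all genes. Higher genes made up 45.3% of those past 2-fold, and 34.4% or 67.4% with rescaling to an equal sum or the median set to 0. The summed trophectoderm markers were higher in replicate 1 (1833 FPKM) than in replicate 2 (1566), and pluripotency markers were at 7430 and 8842. Most of the pluripotency sum was Dppa5a, at 6736 and 8307 FPKM, and the other markers did not share 1 direction. Pou5f1 (280 and 163), Tdgf1 (107 and 61.0) and Zfp42 (132 and 96.3) were lower in replicate 2. Nanog (105 and 133) and Gdf3 (39.1 and 56.0) were higher. Oocyte markers summed to 11.0 and 34.5 FPKM, with 1 and 4 of 9 at 1 FPKM or more. Markers of the 2-cell stage summed to 0.722 and 5.81, and those of primitive endoderm to 156 and 168. Whether any of these differences bears on the Alppl2 values was not tested.

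The genes whose levels ran closest to each of the 5 over the 7 libraries were found by the root mean square difference of log2(FPKM + 1), a description over libraries from 4 tables. The late control and the DRB library were among the 7, so a likeness in their levels follows from this choice. For Slc34a2 the closest genes were D030056L22Rik (0.49), Trim43b (0.60) and Kdm5b (0.65), a histone demethylase gene. Within 1 of Slc34a2 lay 10 genes. Trim43b was at 106 FPKM in the late control and 51.2 in the DRB library, and Kdm5b at 107 and 37.2. Alppl2 had no closer neighbour than Polr1c (0.85), which encodes a subunit of RNA polymerases I and III and was at 52.2 FPKM in control and 13.6 after DRB. It was followed by 2410006H16Rik (0.88) and Pabpc1 (0.90), a poly(A)-binding protein gene, with 10 genes within 1. Slc20a1 ran close to Hnrnpdl (0.25), Rad21 (0.25) and Ppp6r3 (0.26), and 351 genes lay within 1. The closest for Alpl were Commd10 (0.26), 2310045N01Rik (0.27) and Fam213a (0.31), and for Slc20a2 Galnt2 (0.30), Acsf3 (0.35) and Ighmbp2 (0.37). Within 1 lay 489 genes for Alpl and 930 for Slc20a2. The range over the libraries was 435-fold for Slc34a2 and 88.6-fold for Alppl2. It was 13.1-fold for Alpl, 7.86-fold for Slc20a2 and 4.44-fold for Slc20a1, and its part in these counts was not tested.

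Other transport genes of phosphate, with members of the same carrier families, were followed in a list of 19, all of them in the tables. Some, such as Slc17a5 and Slc25a11, are known mainly for other substrates, so the counts below are not of phosphate carriers alone. From PN5 to the late control 6 of 12 measured were higher and 0 lower, against 30.5% and 17.0% of all genes, with a median of 1.11 beside 0.28 for all genes. Slc25a25, a mitochondrial carrier that exchanges ATP-magnesium for phosphate, was at 2.66 FPKM in PN5, 53.4 in control and 23.4 after DRB. Slc37a1, which exchanges glucose 6-phosphate for phosphate, was at 0.217, 6.99 and 4.12. Slc25a3, the mitochondrial phosphate carrier, was at 20.6, 51.6 and 21.5 FPKM, and at 772 and 598 in the ICM libraries. Slc25a11, the oxoglutarate carrier, was at 7.54, 13.8 and 13.8. Xpr1 encodes the known phosphate exporter of animal cells. It was at 12.0 FPKM in MII, 20.9 in PN5, 33.2 in control, 29.1 after DRB, and 2.46 and 1.26 in the ICM libraries, its lowest levels. After DRB 1 of 14 in the list was higher and 2 lower, against 5.57% and 9.99% of all genes. The lower ones were Slc25a3 (-1.23) and Slc25a25 (-1.16). The higher one, Slc34a3, a close relative of Slc34a2, was listed at 0 in control and at 2.07 FPKM after DRB and is named after its values were seen. Slc34a1, the other relative, did not pass 0.953 FPKM in any library.

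Phosphatases and genes of pyrophosphate and pyridoxal phosphate formed a list of 25 symbols, with 24 in the tables. The missing Ankh is another name of Ank, which was found. From PN5 to control 6 of 20 measured were higher, close to the 30.5% of all genes, and 5 lower, against 17.0%, with a median of 0.14. Pdxk, the kinase that makes pyridoxal phosphate, a substrate of the enzyme encoded by Alpl, was at 0.0852 FPKM in PN5, 40.1 in control and 7.22 after DRB. Its differences were 5.24 and -2.32, close to those of Alppl2. Pdxp, a phosphatase of pyridoxal phosphate, was at 14.3, 62.2 and 37.8 FPKM. Phospho2, a phosphatase gene, was at 175, 180 and 217 FPKM, but at 4.80 and 7.50 in the ICM libraries. Enpp3, an ecto-pyrophosphatase, was at 0.685, 6.17 and 4.70. The cytosolic pyrophosphatase gene Ppa1 was at 53.5 FPKM in control and 24.8 after DRB, and the mitochondrial Ppa2 at 10.1 and 15.9. Acp5, tartrate-resistant acid phosphatase, was at 3.24 FPKM or less in the total RNA libraries and at 48.5 and 69.8 in the ICM libraries, a course like that of Alpl. After DRB 2 of 20 were lower, Pdxk and Ppa1 (-1.08), close to the 9.99% of all genes, and 0 higher, against 5.57%.

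Phosphate sensing rests in animal cells on inositol pyrophosphates, which bind XPR1, and in the body on FGF23, parathyroid hormone and their receptors. Of 27 symbols listed 25 were in the tables. The missing Hisppd1 and Hisppd2a are older names of Ppip5k2 and Ppip5k1, which were found. From PN5 to control 6 of 15 were higher and 3 lower, against 30.5% and 17.0% of all genes, with a median of 0.95. After DRB 1 of 19 was higher and 0 lower, against 5.57% and 9.99%. The higher gene, Stc1 (stanniocalcin 1), was at 0.191 FPKM in control and 1.64 after DRB and is named after its values were seen. The inositol phosphate kinase genes Ipmk (152 and 157 FPKM), Ppip5k2 (117 and 186), Ippk (64.0 and 68.0) and Itpk1 (54.8 and 52.6) were within 2-fold between control and DRB embryos. Ipmk was at 3.56 and 3.61 FPKM in the ICM libraries and Ippk at 7.97 and 5.68. Pdzk1, a scaffold of sodium-phosphate cotransporters, was at 56.5 FPKM in PN5 and 3.75 in control. It was low in MII (7.47) and early 2-cell (4.58) as well, and at 27.3 and 24.2 in the ICM libraries. Ip6k2, an inositol hexakisphosphate kinase gene, was at 36.3 in PN5 and 2.37 in control, with 36.3 in MII and 26.0 in early 2-cell.

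Genes of GPI anchor synthesis, which alkaline phosphatases need to reach the cell surface, formed a list of 30 symbols with 28 in the tables. The missing ones were Pigy and Perld1, and Perld1 is an older name of Pgap3, which was found. From PN5 to control 8 of 26 were higher, close to the 30.5% of all genes, and 2 lower, against 17.0%, with a median of 0.58. After DRB 3 of 26 were lower and 0 higher, against 9.99% and 5.57% of all genes, with a median of -0.18 beside -0.05 for all genes. The subunits of dolichol phosphate mannose synthase differed among themselves. Dpm1 was at 1.42 FPKM in PN5, 16.0 in control and 7.67 after DRB. Dpm3 was listed at 0 in PN5 and was at 7.01 in control and 0.743 after DRB, a difference of -2.20, and at 48.9 and 120 in the ICM libraries. Dpm2 was at 21.3, 10.4 and 11.3 FPKM. Pigf was at 110, 92.5 and 121, Pigx at 13.5, 17.2 and 18.4, and Mppe1 at 0.120, 3.55 and 3.49. The other lower genes after DRB, named after their values were seen, were Pigl (6.08 and 1.90 FPKM) and Pigs (18.1 and 7.53). In the ICM against the late control, where 25.0% of all genes were higher and 47.8% lower, 5 of 12 transport genes were higher and 4 lower, 7 of 21 phosphatase and pyrophosphate genes higher and 7 lower, 1 of 15 sensing genes higher and 7 lower, and 8 of 26 GPI anchor genes higher and 7 lower. In the plot of the pathway lists no listed gene lies above Slc34a2 for the step from PN5, and Pdxk alone lies above Alppl2.

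**Figure D5:**
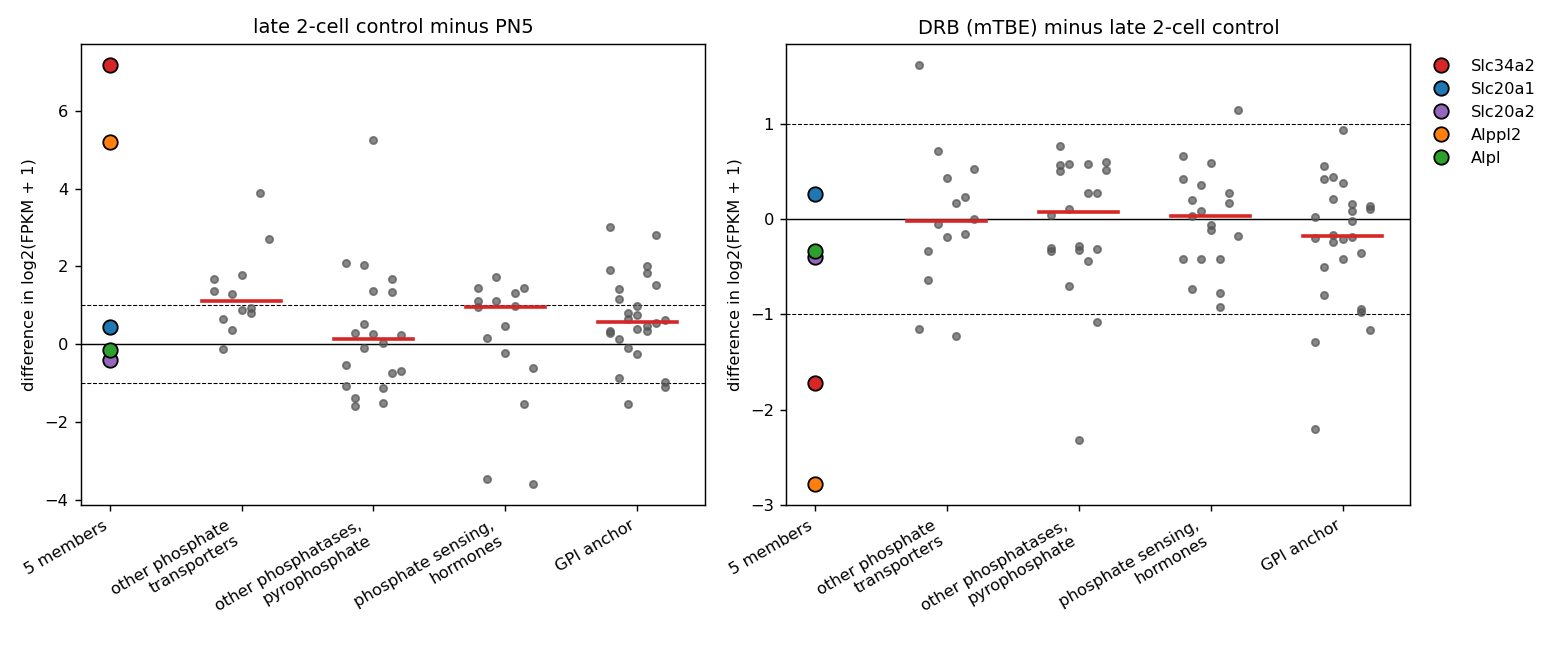
Points give the difference in log2(FPKM + 1) for the 5 genes (coloured) and for the measured genes of 4 pathway lists (grey), from PN5 to the late 2-cell control (left) and from control to DRB-released embryos (right), with list medians as red lines and 2-fold as dashed lines. Slc34a2 at 7.18 is the highest point on the left and Alppl2 at -2.78 the lowest on the right.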

How the data were processed

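The authors deposited FPKM per gene symbol, 1 column for each of 7 RNA libraries in 4 tables, per the file headers. Per the submitters' processing notes the tools were Cufflinks 2.1.1, TopHat2 2.1.1 and CASAVA 1.8, and the build mm9, with no role stated. Not given in the sources used here: strand use, annotation and the handling of multi-mapped reads. The MII and early 2-cell files each hold 1 value column and were taken by the sample they are listed with. The MII column is headed MII_rep1, which is also the title of a chromatin sample, so its place as total RNA rests on that listing and on its FPKM values. The column headed 1cell was taken as the PN5 library and the column named for DRB as the library labelled mTBE, the only total RNA samples of their kind. The other 109 of 116 samples were not used here, and 0 value columns were left unmapped.

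Rows that shared a symbol were summed. Differences were taken on log2(FPKM + 1), with a pseudocount of 1 and a filter of 1 FPKM in either group, and comparisons across tables used symbols found in both. Read depth is unknown for total RNA, since low values showed no common step (16 of 580 genes at 1 ratio between the late libraries). In the ICM pair 283 of 1972 genes lay at the ratio 2.11, which places replicate 1 at about that multiple of the depth of replicate 2. Named were all 5 genes, up to 4 genes of each list with the highest level from 10 FPKM, any list gene with a 4-fold difference in either main step, and the 3 closest genes by profile. The 5 genes, the lists and the comparisons were chosen with earlier results of these data known. Python 3.11.15, numpy 2.4.6, pandas 2.3.3 and matplotlib 3.10.9 were used.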

Additional observations from a re-analysis of the deposited data

How the results depend on the processing

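Slc34a2 and Alppl2 were the genes past 2-fold in control against PN5 and in DRB against control with a pseudocount of 0.1, a filter of 5 FPKM, no filter, rescaling each library to a sum of 1000000, the median ratio set to 0 and the highest of repeated rows. In DRB against PN5 both stayed past 2-fold under these 6 alternatives, and the count was 3 in place of 2 with a pseudocount of 0.1 or rescaling (Slc20a2 added as lower). With rescaling the DRB level was 29.4% of control for Slc34a2 and 13.6% for Alppl2, and with the highest of repeated rows it was as reported. Across tables the count was 1 in place of 2 for PN5 against MII with rescaling or the median set to 0, where Slc20a1 was lost, and 1 in place of 2 for early 2-cell against MII with a filter of 5 FPKM (Slc34a2 lost), rescaling or the median set to 0 (Slc20a2 lost). Between the ICM replicates it was 2 in place of 1 with a pseudocount of 0.1 (Slc20a2 added) and with rescaling (Slc20a1 added). For the late control against early 2-cell it was 4 in place of 3 with rescaling or the median set to 0 (Slc20a2 added as lower). For ICM against the late control it ranged from 2 to 3 when 1 ICM library was left out, and was 3 with rescaling or the median set to 0 (Slc20a1 added as lower). Of 234 single differences recomputed, 36 moved by more than the SD of the gene's ICM values and 0 of those past 2-fold changed sign. That SD rests on 1 pair of libraries, which differed by -0.04 for Alpl and 1.42 for Alppl2. Small shifts of Alpl therefore count as moved, and larger ones of Alppl2 do not. With a cut of 5 FPKM 15 ranks within a library moved by more than the SD of the gene's ICM ranks, and 6 did not. Over all genes, higher genes made up 35.8% of those past 2-fold after DRB, 18.4% with a filter of 5 FPKM (245 in place of 765) and 46.9% with rescaling (1859 higher and 2106 lower). No paired analysis was possible because no 2 groups compared share more than 1 replicate number. With 1 library a group, no difference outside the ICM pair has a replicate check.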
